A study of Sus scrofa with 9 samples.

Results

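The genes described here encode proteins of the dentin and bone matrix and an enzyme that acts on them: DSPP, DMP1, PHEX, SPP1, IBSP, BGLAP and MEPE. They were chosen by symbol, with no threshold on a measured value but with earlier results of these data known, and make up 7 of the 34580 rows of the expression table. DSPP, DMP1 and PHEX are taken as the 3 odontoblast genes, and SPP1, IBSP, BGLAP and MEPE as the 4 genes shared with bone. Total RNA of the mandibular deciduous molar germ (Dm3) of miniature pigs was sequenced at embryonic day 40 (E40, cap stage), day 50 (E50, early bell stage) and day 60 (E60, late bell stage), with 3 libraries a stage. No animal carried a genetic change or received a test treatment, all germs were whole, with epithelium and mesenchyme together, and the comparison is between ages only. Levels are in FPKM, fragment counts scaled to exon length and to the mapped fragments of the library, so that genes of different length can be compared within a library. The labels do not say whether the libraries of a stage came from separate fetuses or sows, so the p-values measure only the spread between these libraries, which may be technical.

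As background, DSPP, DMP1, IBSP, MEPE and SPP1 belong to the small integrin-binding ligand N-linked glycoprotein family, acidic and heavily phosphorylated secreted proteins that bind calcium and take part in the mineralization of collagen. DSPP gives rise to dentin sialoprotein and dentin phosphoprotein, the main noncollagenous proteins of dentin, and is made by odontoblasts and, for a short time, by young ameloblasts. PHEX is a membrane endopeptidase of odontoblasts, osteoblasts and osteocytes and is no matrix protein itself, and BGLAP encodes osteocalcin, which carries gamma-carboxyglutamate rather than phosphate as its defining modification. In a developing tooth, odontoblasts differentiate from the dental papilla during the bell stage, next to the inner enamel epithelium, and lay down predentin that then mineralizes.

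Read depth split the libraries in a way that stage did not. Whole reads could be recovered from the FPKM steps, and totals ran from 682498 to 1206199 reads in 5 libraries (all of E40, and E60 libraries 2 and 3) and from 13884280 to 16202958 reads in 4 libraries (all of E50, and E60 library 1). Correlations across genes of log2 levels were 0.959 to 0.983 within the 4 deep libraries, 0.743 to 0.838 within the 5 shallow ones and 0.301 to 0.609 between the sets. E60 library 1 therefore stood apart from the others of its stage, and comparisons of the 7 genes with E60 are given over all 9 libraries, over the 8 without it, and between libraries of the same set. E40 and E50 lie wholly in different sets, so a difference between the sets can be separated from that between these stages only through the E60 libraries, of which 1 is deep. Over all 19618 genes tested, the log2 fold change had a median of 0.55 from E40 to E50, −0.64 from E50 to E60 and −0.22 from E40 to E60, and with median-ratio scaling it was −0.09, 0.08 and −0.12. Of the 7 genes, 6 reached the minimum of 1 FPKM in at least 2 libraries and were tested, and MEPE did not. PHEX passed this filter only through the E60 libraries, where it was high. Its inclusion in each comparison therefore follows from that rise and is no separate support for it.

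The 3 odontoblast genes were low at E40 and E50 and high in every E60 library, whereas SPP1 and IBSP stayed within a few-fold of their earlier levels and BGLAP was lowest at E60. From E50 to E60 the mean FPKM was 212-fold higher for DSPP, 85.9-fold higher for PHEX and 33.7-fold higher for DMP1. DSPP moved from the fourth place among the 7 genes at E40 and E50 to the first at E60.

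**Figure D1:**
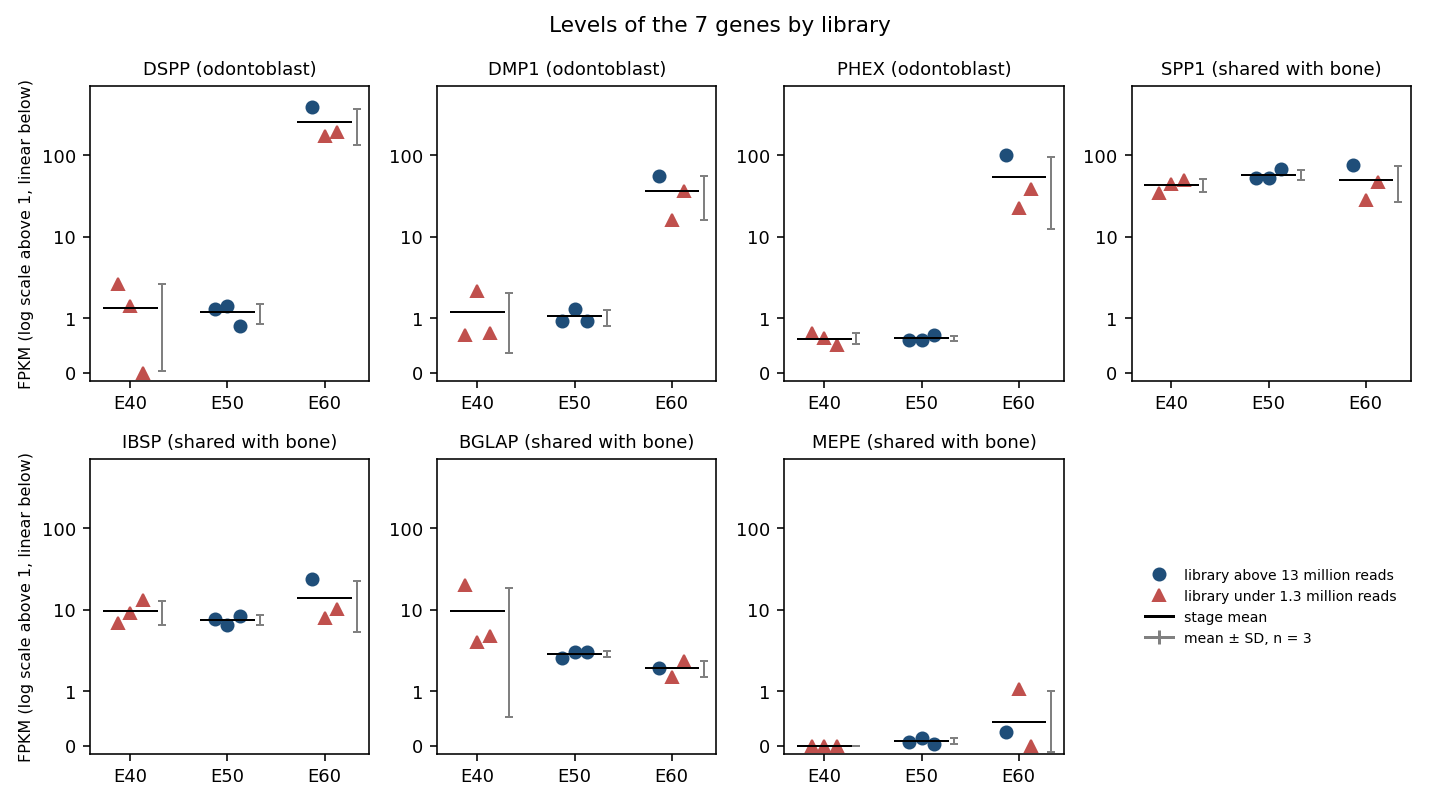
FPKM of each of the 7 genes (y axis, logarithmic above 1 and linear below) in the 3 libraries of E40, E50 and E60 (x axis). Circles are the 4 deep libraries and triangles the 5 shallow ones, the black line is the stage mean and the grey bar the mean ± SD (n = 3). DSPP, DMP1 and PHEX at E60 lie above all their E40 and E50 values, while the 3 stages of SPP1 and of IBSP lie close together.

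DSPP, the precursor of the major dentin phosphoprotein, was listed at 2.62, 1.41 and 0 FPKM in E40 libraries 1, 2 and 3, at 1.31, 1.42 and 0.857 in the E50 libraries, and at 393, 174 and 194 in the E60 libraries. The stages E40 and E50 overlapped and every E60 library lay above both. These levels rest on 5, 3 and 0 reads at E40, on 39, 48 and 25 at E50, and on 12871, 489 and 693 at E60. The 0 in E40 library 3 allows up to 3 reads at a depth of 1011797, counting error only, so the E40 level was at the limit of detection. Stage means were 1.34 ± 1.31, 1.19 ± 0.297 and 254 ± 121 FPKM (SD, n = 3). The percentile rank of the DSPP level among all tested genes was 98.6 to 99.2 at E60, against 3.40 to 32.3 at E40 and E50. The 3.40 is that of E40 library 3, where DSPP, at 0, took the mean rank of all genes at 0.

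DMP1, an acidic phosphoprotein of dentin and osteocytes that nucleates mineral, was at 0.689, 2.15 and 0.732 FPKM in the E40 libraries, at 0.948, 1.32 and 0.945 in the E50 libraries and at 55.5, 15.9 and 36.7 in the E60 libraries. Here too E40 and E50 overlapped, and the lowest E60 library was far above the highest earlier one. The reads were 2, 7 and 3 at E40, 43, 68 and 42 at E50, and 2772, 68 and 200 at E60. Stage means were 1.19 ± 0.832, 1.07 ± 0.214 and 36.1 ± 19.8 FPKM (SD, n = 3).

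PHEX, the endopeptidase whose loss causes phosphate wasting and poorly mineralized dentin and bone, was at 0.724, 0.647 and 0.514 FPKM at E40, at 0.603, 0.611 and 0.686 at E50 and at 102, 22.7 and 38.8 at E60. No earlier library reached 1 FPKM, and all E60 libraries were at 22.7 or above. The reads were 2 in each E40 library, 26, 30 and 29 at E50, and 4832, 92 and 201 at E60. Stage means were 0.628 ± 0.107, 0.633 ± 0.0458 and 54.4 ± 41.8 FPKM (SD, n = 3), and E60 library 1, the deep one, held the highest level of each of the 3 odontoblast genes.

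SPP1, osteopontin, an integrin ligand of bone, of many epithelia and of macrophages, was the most abundant of the 7 genes before E60. It was at 35.0, 44.7 and 50.0 FPKM at E40, at 52.8, 53.5 and 68.1 at E50 and at 75.8, 28.4 and 47.5 at E60. The E50 libraries lay just above the E40 libraries, and the E60 libraries spanned both, with E60 library 1 the highest of all 9 and E60 library 2 the lowest. Stage means were 43.2 ± 7.65, 58.1 ± 8.63 and 50.6 ± 23.8 FPKM (SD, n = 3).

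IBSP, bone sialoprotein, which is bound to early mineral in bone and cementum, was at 6.82, 9.13 and 13.1 FPKM at E40, at 7.81, 6.44 and 8.42 at E50 and at 24.0, 7.88 and 10.18 at E60. The stages overlapped throughout, and only E60 library 1 lay outside the range of the others. Stage means were 9.67 ± 3.15, 7.56 ± 1.01 and 14.0 ± 8.70 FPKM (SD, n = 3).

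BGLAP, osteocalcin, a late osteoblast product, was at 20.1, 3.98 and 4.74 FPKM at E40, at 2.57, 3.01 and 3.06 at E50 and at 1.94, 1.51 and 2.38 at E60. Each stage lay below the one before without overlap, although E40 library 1 alone carried most of the E40 mean. The values rest on few reads, 9, 2 and 3 at E40, 18, 24 and 21 at E50, and 15, 1 and 2 at E60. Stage means were 9.59 ± 9.07, 2.88 ± 0.269 and 1.94 ± 0.431 FPKM (SD, n = 3).

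MEPE, a matrix phosphoglycoprotein of osteocytes and odontoblasts that carries a mineralization-inhibiting peptide, had 0 reads in all 3 E40 libraries, 2, 5 and 1 at E50, and 8, 3 and 0 at E60. Its highest level was 1.08 FPKM, in E60 library 2, from 3 reads. The E50 libraries lay above the E40 libraries, which were all at 0, and E60 overlapped both. In the E40 libraries 1 MEPE read equals 0.376 to 0.530 FPKM, more than the E50 levels of 0.035 to 0.149 FPKM. A 0 at E40 may thus be a level below detection, and this separation does not show a rise. Of all tested genes, 45.2% were higher at E50 without overlap. With no filter on low values MEPE was called in none of the 3 comparisons (adjusted p of 0.453, 0.437 and 0.354 from E40 to E50, E50 to E60 and E40 to E60, limma), although the last of these had an unadjusted p of 0.0491. With so few reads no fold change is given.

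Between E40 and E50 none of the 6 tested genes was called. A gene was called at an adjusted p under 0.05 (limma on log2(FPKM + 0.1), Benjamini-Hochberg over all genes tested) and a change of at least 1 log2 unit either way, and by this rule 38.6% of all tested genes were called in this comparison. At an unadjusted p under 0.05 the count was 0 of 6 as well, and with limma-voom on the recovered reads, which called 32.4% of all genes, it was 1, BGLAP. The log2 fold changes were 0.77 (SE 1.06, adjusted p = 0.556) for DSPP, 0.02 (SE 0.61, adjusted p = 0.977) for DMP1 and 0.02 (SE 0.58, adjusted p = 0.981) for PHEX. These do not show equal levels, since the 95% intervals ran from −1.60 to 3.15 for DSPP, from −1.36 to 1.41 for DMP1 and from −1.29 to 1.33 for PHEX.

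Among the bone-shared genes the change from E40 to E50 was 0.43 (SE 0.40, adjusted p = 0.381) for SPP1, −0.31 (SE 0.48, adjusted p = 0.602) for IBSP and −1.31 (SE 0.62, adjusted p = 0.116) for BGLAP. SPP1 was higher at E50 without overlap, as were 45.2% of all tested genes, and BGLAP was lower without overlap, as were 27.8%. Relative to the median of all genes the changes were −0.11 for SPP1, −0.86 for IBSP and −1.86 for BGLAP. With median-ratio scaling BGLAP passed the test (−1.95, adjusted p = 0.0474), as did 37.1% of all genes, IBSP was at −0.96 (adjusted p = 0.0229), short of 1 log2 unit, and the SPP1 value turned to −0.23. With the set as a term, estimated from the E60 libraries, 0.255% of all genes and 0 of the 6 were called, with an unadjusted p under 0.05 for IBSP at −1.72 (SE 0.52, adjusted p = 0.386) and PHEX at −1.76 (SE 0.57, adjusted p = 0.437).

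From E50 to E60, over all 9 libraries, 2 of the 6 tested genes were called, PHEX and DMP1, both higher at E60, where 0.0714% of all tested genes were called and 0.051% were called higher. The log2 fold change was 5.94 for PHEX (SE 0.58, adjusted p = 0.00678) and 4.79 for DMP1 (SE 0.61, adjusted p = 0.0373). DSPP had the largest change of the 7 genes, 7.54 (SE 1.06), and missed the threshold at adjusted p = 0.0536. Its SE follows the spread within E40, which held a library at 0: without E40 library 3 the same change of 7.54 had an SE of 0.47 and an adjusted p of 0.000974. With limma-voom on the recovered reads, which called 0.754% of all genes, all 3 were called, with changes of 8.04 for DSPP, 6.53 for PHEX and 5.31 for DMP1. All 3 genes were higher in 3 of 3 E60 libraries than in any E50 library, as were 5.18% of all tested genes, and above all E40 and E50 libraries together, as were 0.805%.

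The rise did not rest on E60 library 1. Without it the E50 to E60 changes were 7.18 (SE 1.18, adjusted p = 0.00105) for DSPP, 4.39 (SE 0.57, adjusted p = 0.00032) for DMP1 and 5.34 (SE 0.40, adjusted p = 2.08e-05) for PHEX, all 3 called. In that fit the deep E50 libraries are set against shallow E60 libraries alone and 59.1% of all tested genes were called (20.0% higher), so a call there is common for any gene. Between libraries of the same deep set, E60 library 1 against the 3 E50 libraries, the changes were 8.27 (SE 1.48, adjusted p = 0.166) for DSPP, 5.59 (SE 0.70, adjusted p = 0.0382) for DMP1 and 7.12 (SE 0.45, adjusted p = 0.000627) for PHEX, with 0.107% of all genes called. That fit takes the spread of the single deep E60 library from the other groups.

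The call of PHEX and DMP1 from E50 to E60 depended on single libraries. Leaving out E50 library 1, 2 or 3, or E60 library 3, left 0 of the 6 genes called, with log2 fold changes of 5.91 to 6.04 and adjusted p of 0.0645 to 0.0807 for PHEX, and 4.69 to 4.94 and 0.254 to 0.318 for DMP1. Leaving out E40 library 1 left 1 gene called, PHEX, since DMP1 then had an adjusted p of 0.0671, and leaving out E40 library 3 replaced DMP1 (adjusted p = 0.0783) by DSPP. The share of all genes called in these fits is not given, so these counts do not show how common a call was.

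The genes shared with bone gave no call from E50 to E60. The log2 fold change was −0.30 (SE 0.40, adjusted p = 0.559) for SPP1, 0.72 (SE 0.48, adjusted p = 0.267) for IBSP and −0.56 (SE 0.62, adjusted p = 0.493) for BGLAP, and none passed an unadjusted p under 0.05. The 95% intervals ran from −1.19 to 0.59 for SPP1, from −0.35 to 1.79 for IBSP and from −1.96 to 0.84 for BGLAP, all below the lowest bound of the odontoblast genes, 3.41 for DMP1. Without E60 library 1 the changes were −0.65 (SE 0.30, adjusted p = 0.0847), 0.25 (SE 0.32, adjusted p = 0.513) and −0.57 (SE 0.64, adjusted p = 0.455) for SPP1, IBSP and BGLAP. Within the deep set they were 0.39 (SE 0.37, adjusted p = 1.0), 1.66 (SE 0.41, adjusted p = 0.493) and −0.54 (SE 0.82, adjusted p = 1.0), and only the IBSP value had an unadjusted p under 0.05 (0.00321). BGLAP was lower at E60 without overlap, as were 21.6% of all tested genes.

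**Figure D2:**
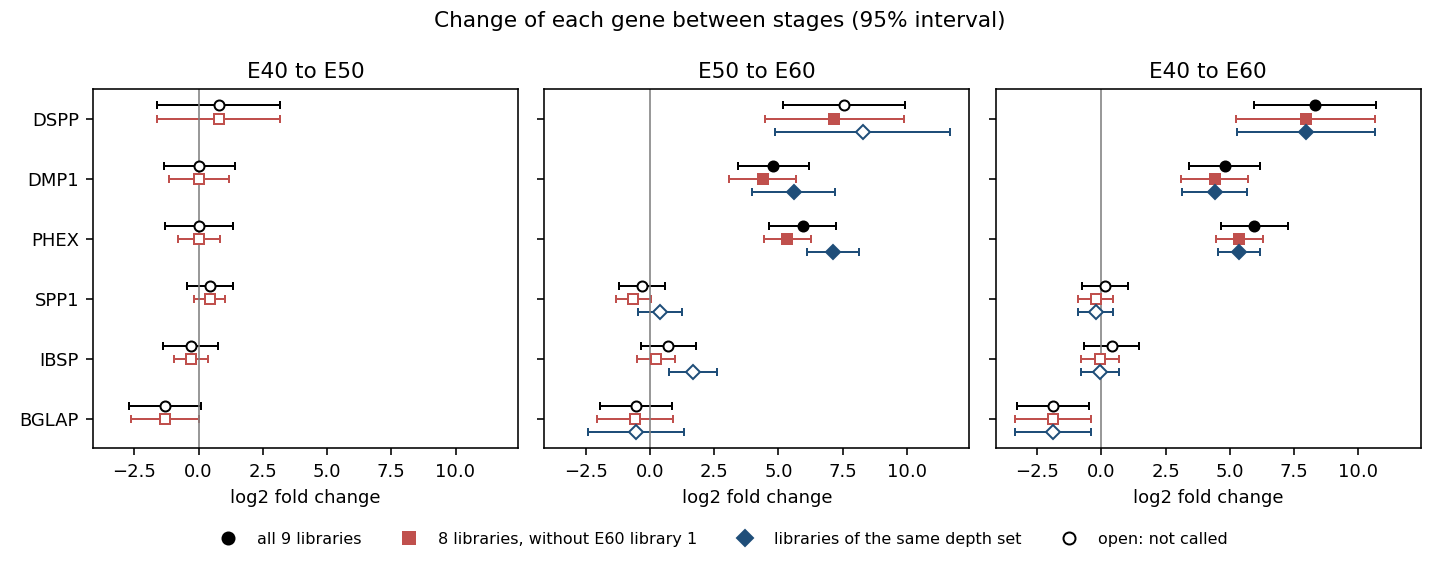
Log2 fold change (x axis) of the 6 tested genes (y axis) from E40 to E50, E50 to E60 and E40 to E60, with 95% intervals. Black circles are the fit over all 9 libraries, red squares the fit over 8 libraries without E60 library 1 and blue diamonds the comparison within a depth set, which has no E40 to E50 value. Filled symbols were called. DSPP, DMP1 and PHEX lie to the right of 0 in every fit with E60, while the intervals of SPP1 cross 0 in each.

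From E40 to E60, 3 of the 6 tested genes were called, all 3 of them odontoblast genes and higher at E60, against 1.8% of all tested genes called and 0.663% called higher. They were also the 3 of the 6 that were higher at E60 in all libraries without overlap, as were 3.89% of all tested genes. The log2 fold changes were 8.32 for DSPP (SE 1.06, adjusted p = 0.00677), 5.96 for PHEX (SE 0.58, adjusted p = 0.0021) and 4.81 for DMP1 (SE 0.61, adjusted p = 0.00677). These were the second, 17th and 47th largest rises of 19618. All 3 stayed called whichever single library was left out, with changes of 6.87 to 9.25 for DSPP, 5.36 to 6.45 for PHEX and 4.41 to 5.31 for DMP1. Of these fits, the share of all genes called is given only for that without E60 library 1 (6.06%). For the other fits, how common a call was is not shown.

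Within the shallow set alone, E60 libraries 2 and 3 against the 3 E40 libraries, the changes were 7.95 (SE 1.17, adjusted p = 0.00976) for DSPP, 5.36 (SE 0.35, adjusted p = 0.000209) for PHEX and 4.41 (SE 0.55, adjusted p = 0.00519) for DMP1, with 5.89% of all tested genes called. The fit over the 8 libraries gave the same changes, with adjusted p of 0.0097, 0.000444 and 0.00569 and 6.06% of all genes called. Fitted without the E50 libraries, only PHEX was called (adjusted p = 0.0311), where 0.142% of all genes were called, and the adjusted p was 0.0719 for DSPP and 0.0722 for DMP1.

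SPP1, IBSP and BGLAP were not called from E40 to E60. The log2 fold change was 0.13 (SE 0.40, adjusted p = 0.898) for SPP1, 0.41 (SE 0.48, adjusted p = 0.672) for IBSP and −1.87 (SE 0.62, adjusted p = 0.192) for BGLAP. In the shallow set, where the changes equalled those over the 8 libraries, SPP1 was at −0.22 (SE 0.30, adjusted p = 0.662), IBSP at −0.06 (SE 0.32, adjusted p = 0.921) and BGLAP at −1.88 (SE 0.65, adjusted p = 0.124). BGLAP alone of the 3 had an unadjusted p under 0.05, and it was lower at E60 without overlap, as were 19.0% of all tested genes. In whole germs, fewer cells of a type and less RNA per cell cannot be told apart, in either direction of change.

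**Figure D3:**
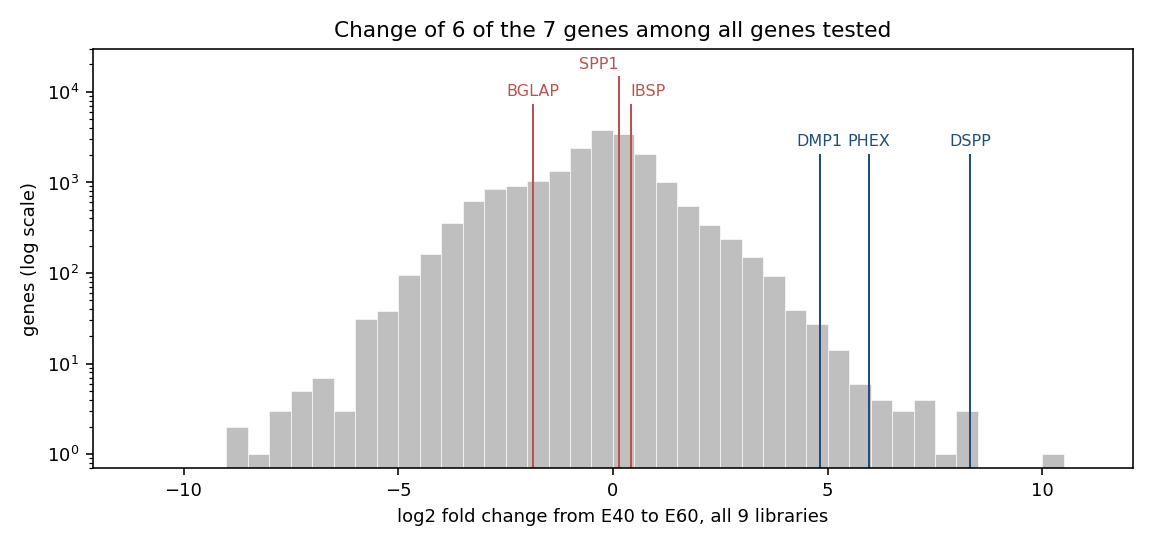
Number of genes (y axis, logarithmic) by log2 fold change from E40 to E60 over all 9 libraries (x axis, bins of 0.5) for the 19618 tested genes, with vertical lines at 6 of the 7 genes (blue odontoblast, red shared with bone). DSPP at 8.32, PHEX at 5.96 and DMP1 at 4.81 lie in the upper tail, while SPP1 at 0.13 and IBSP at 0.41 lie near the middle.

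The reads were recovered from the FPKM values and are the same data, so their ratios add an interval for counting error and no separate support. In the shallow libraries DSPP had 8 reads at E40 and 1182 at E60, a depth-corrected ratio of 156 (95% exact interval 78.8 to 362), and in the deep libraries it had 112 reads at E50 and 12871 at E60, a ratio of 326 (270.4 to 396). PHEX ratios were 51.5 (23.4 to 142) and 161 (130.0 to 202), and DMP1 ratios 23.6 (13.3 to 46.2) and 51.3 (43.6 to 60.8), so that of the 3 the ratio was highest for DSPP and lowest for DMP1 in both sets, with the intervals of neighbours overlapping in the shallow set. These intervals cover counting error only, compare these libraries and not the stages, and treat reads as independent molecules.

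For the bone-shared genes the read ratios differed between the sets. SPP1 was at 0.888 (0.728 to 1.08) in the shallow set and 1.31 (1.24 to 1.38) in the deep set, and IBSP at 0.913 (0.599 to 1.39) and 3.19 (2.84 to 3.59). BGLAP was at 0.226 (0.0417 to 0.81) from 14 and 3 reads in the shallow set and at 0.675 (0.357 to 1.199) from 63 and 15 reads in the deep set. The earlier stage is E40 in the shallow set and E50 in the deep set, so the pairs of ratios are not repeats of a single comparison.

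Ratios between genes of the same library, taken on FPKM + 0.1, are moved by the scaling of that library only where a level is near the pseudocount. All 9 pairs of an odontoblast gene with SPP1, IBSP or BGLAP had a higher log2 ratio in every E60 library than in any E40 or E50 library. For comparison, 1.09% of all other tested genes separated in that way relative to SPP1, 0.296% relative to IBSP and 4.42% relative to BGLAP. The log2 ratio of DSPP to SPP1 was −3.69, −4.89 and −8.97 at E40, −5.23, −5.14 and −6.15 at E50, and 2.37, 2.61 and 2.03 at E60. The −8.97 of E40 library 3, which had 0 DSPP reads, is set by the pseudocount. DSPP changed from the lesser to the greater, in the deep E60 library as in both shallow ones.

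The rise of the mean DSPP to SPP1 ratio was 7.85 log2 units from E50 to E60 and 8.19 from E40 to E60, each with p = 0.1 in a two-sided exact permutation test, which is the smallest p that 3 against 3 libraries allow. That p follows from the full separation seen above and adds no support to it. The pair is 1 of the 9, and its genes were chosen with earlier results of these data known. From E40 to E50 the change was 0.34 with p = 1.0 in the same exact test. Without E40 library 3, left out after its values were seen, the change was 6.63 from E40 to E60 and −1.22 from E40 to E50. DMP1 and PHEX reached about the level of SPP1 at E60, with log2 ratios of −0.45, −0.83 and −0.37 for DMP1 and 0.43, −0.33 and −0.29 for PHEX, from −4.31 or below and −5.41 or below earlier. Averaged over genes, the level of the odontoblast genes minus that of SPP1, IBSP and BGLAP was −3.81, −3.13 and −5.31 log2 units at E40, −3.36, −3.16 and −3.73 at E50, and 3.07, 2.48 and 2.61 at E60.

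**Figure D4:**
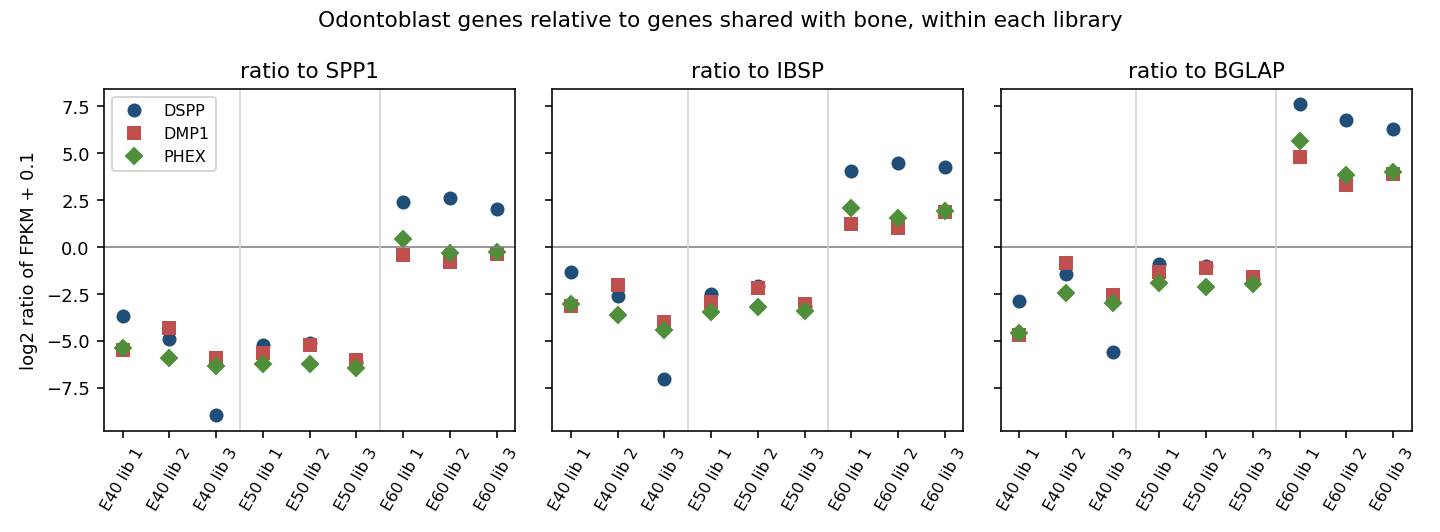
Log2 ratio of FPKM + 0.1 (y axis) of DSPP, DMP1 and PHEX to SPP1, IBSP and BGLAP in each of the 9 libraries (x axis). In every panel the E60 points of each gene lie above all its E40 and E50 points, with DSPP to SPP1 at 2.03 to 2.61 in E60 and at −3.69 or below earlier.

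The make-up of the group turned over accordingly. SPP1 made up 53.1 to 82.9% of the summed FPKM of the 7 genes at E40 and E50 and 11.3 to 14.4% at E60, and DSPP made up 0 to 3.98% before and 58.9 to 69.3% at E60. The sum itself was 62.0 to 82.1 FPKM in the 6 earlier libraries and 652, 252 and 330 in E60 libraries 1, 2 and 3. At E60 PHEX held 8.99 to 15.6% and DMP1 6.32 to 11.1%, and BGLAP, which had 30.4% in E40 library 1, held at most 0.721%.

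**Figure D5:**
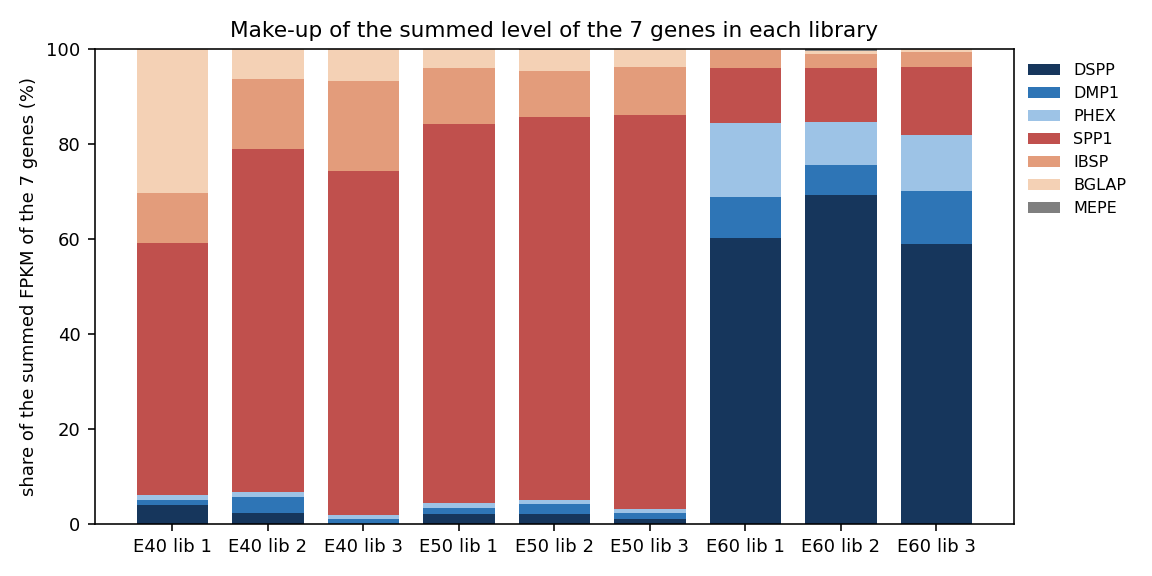
Share of each gene in the summed FPKM of the 7 genes (y axis, %) in each of the 9 libraries (x axis). Blue shades are the odontoblast genes, red shades the genes shared with bone, and MEPE is too low to see. SPP1 is the largest part at E40 and E50 and DSPP, at 58.9 to 69.3%, the largest at E60.

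By mean FPKM the order at E40 was SPP1, IBSP, BGLAP, DSPP, DMP1, PHEX and MEPE, and it was the same at E50. The ranges of IBSP and BGLAP overlapped at E40, as did those of DSPP and DMP1 and of DMP1 and PHEX, and at E50 only DSPP and DMP1 overlapped among neighbours. At E60 the order was DSPP, PHEX, SPP1, DMP1, IBSP, BGLAP and MEPE. There DSPP stood clear of PHEX, PHEX overlapped SPP1, SPP1 overlapped DMP1 and DMP1 overlapped IBSP, while BGLAP and MEPE each lay below without overlap.

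The genes whose pattern over the 9 libraries was most like that of each member were found by the root mean square distance of centred log2 levels, among 11355 genes. Nearest to DSPP were AMEL, amelogenin, at 1.37 log2 units, AMBN, ameloblastin, at 1.498, and PHEX at 1.51. Among the nearest to PHEX were SLC15A1 at 0.71 and DMP1 at 0.71, and nearest to DMP1 were SLC9A2 at 0.61, PLSCR5 at 0.62 and PHEX at 0.71. SPP1 lay nearest to M6PR at 0.10, BCAT2 at 0.12 and FAM103A1 at 0.12, which like SPP1 varied little. IBSP lay nearest to COL17A1 at 0.28, OSTF1 at 0.30 and SCHIP1 at 0.32, and BGLAP nearest to SOCS1 at 0.48, THPO at 0.52 and HCN3 at 0.52. For DSPP, DMP1 and PHEX, IBSP was the 576th, 261st and 300th nearest gene. SPP1 was the 1805th, 1108th and 1297th, and BGLAP the 9800th, 10014th and 9946th. DSPP was the 138th nearest to DMP1 and the 17th to PHEX.

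In pig assembly Sscrofa11.1 the 5 genes of the glycoprotein family lie side by side in the order SPP1, MEPE, IBSP, DMP1 and DSPP, between PKD2 and SPARCL1, with a noncoding gene between IBSP and DMP1 that was not analysed here, and PHEX and BGLAP lie on other chromosomes. The large rise at E60 was seen in the adjacent pair DMP1 and DSPP, and also in PHEX on another chromosome. IBSP, the family member next to that pair, changed by 0.72 log2 units from E50 to E60 over all 9 libraries, without a call. Its change within the deep set was 1.66. SPP1, at the other end of the row, changed by −0.30 and 0.39, and MEPE had too few reads for a fold change. A link with position was not tested. PKD2, SPARCL1 and NUDT9, the neighbours outside the row, were not called from E50 to E60 (log2 fold changes −1.24, −0.48 and −1.11, adjusted p 0.164, 0.387 and 0.175). The annotated extent of DSPP overlaps DMP1, SPARCL1 and NUDT9 in that assembly, and whether the counting used strand is not stated, so reads in shared stretches may be split between them.

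Some marker genes of ameloblasts moved with the odontoblast genes at E60. The 5 ameloblast markers of the list of 8 that were analysed summed to 14.4 to 23.9 FPKM at E40, 21.4 to 23.9 at E50 and 18298, 3387 and 8385 in E60 libraries 1, 2 and 3. AMEL, AMBN and ENAM, the structural proteins of enamel, rose by 9.10 (SE 0.64, adjusted p = 0.000637), 10.31 (SE 0.57, adjusted p = 0.000102) and 10.85 (SE 0.57, adjusted p = 9.73e-05) log2 units from E50 to E60, and AMTN and ODAM were not called. Without E60 library 1 the rises were 8.40, 9.78 and 10.27, all called, and within the deep set 10.50, 11.38 and 12.02. AMTN went the other way, with −2.85 (adjusted p = 0.167, limma) from E50 to E60 over all 9 libraries, and ODAM changed by 0.25. Without E60 library 1 AMTN was called lower, at −3.60 (adjusted p = 0.0465, limma), where 59.1% of all tested genes were called. With PHEX and DMP1, the genes AMEL, AMBN and ENAM make up 5 of the 10 genes called higher between E50 and E60 over all 9 libraries. DSPP is also made by young ameloblasts, and the part of each cell type in the DSPP level was not tested.

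The labelled tissue was checked against its markers. All 8 genes of the dental mesenchyme and papilla list were above 0 in all 9 libraries, with sums of 195 to 275 FPKM at E40, 239 to 299.6 at E50 and 91.1 to 154 at E60, and 5 of 6 dental epithelium markers were too, with sums of 1348 to 4866 FPKM over the 9 libraries, CDH1 being listed at 0. The osteoblast list summed to 113 to 172 FPKM at E40, 103 to 181 at E50 and 194 to 628 at E60, most of it COL1A1, which dentin also holds, and ALPL was listed at 0. Osteoclast markers summed to 7.06 to 11.01, 51.3 to 61.6 and 12.5 to 71.1 FPKM, macrophage markers to 3.78 to 6.60, 8.22 to 11.4 and 4.09 to 17.9, with CD163 listed at 0, and cartilage markers to 31.2 to 37.8, 24.7 to 32.4 and 28.6 to 39.3 at E40, E50 and E60. Skeletal muscle markers summed to 38.6 to 57.4 FPKM at E40 and 3.36 to 9.59 later, endothelial markers to 16.6 to 63.2 and erythroid markers to 94.6 to 1028 over the 9 libraries. The part of these cells in the levels of SPP1, IBSP and BGLAP was not tested. At E60 the osteoclast sum was 71.1 FPKM in the deep library 1 and 12.5 and 25.0 in the shallow libraries. The macrophage sum was 17.9 against 4.09 and 6.62, and the endothelial sum 63.2 against 16.6 and 30.7. The mesenchyme, epithelium and skeletal muscle sums were not highest in library 1. Between E40 and E50, depth and stage cannot be told apart in these sums.

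The other genes of the same pathways were read from 6 lists, of which 50 genes were tested. From E40 to E50, 13 were called higher and 5 lower, where 16.8 and 21.8% of all genes were called higher and lower. From E50 to E60, where PHEX and DMP1 were called, 0 of the 50 were called by limma over all 9 libraries, with 12 at an unadjusted p under 0.05 (24.0%, against 30.2% of all genes) and 3 called by limma-voom, which called 0.754% of all genes. In the deep set 0 of 50 were called from E50 to E60, where 0.107% of all genes were called, with 13 at an unadjusted p under 0.05 (26.0%, against 3.77% of all genes). Without E60 library 1, 6 of 49 were called higher and 22 lower from E50 to E60, in the fit in which 59.1% of all genes were called. From E40 to E60, 2 of 50 were called, both higher, where 1.8% of all genes were called and 0.663% called higher, with 20 at an unadjusted p under 0.05 (40.0%, against 17.9% of all genes). Limma-voom called 14 of them and 14.6% of all genes. In the shallow set 4 were called higher and 4 lower from E40 to E60 (5.89% of all genes called), and without E60 library 1, 3 of 49 higher and 4 lower (6.06% of all genes called).

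Of 7 transcription factors of odontoblasts and osteoblasts tested, DLX3 was called higher and RUNX2 lower from E40 to E50. DLX3, whose loss disturbs dentin, was at 2.94 ± 1.008, 20.0 ± 3.16 and 15.6 ± 10.4 FPKM at E40, E50 and E60 (SD, n = 3), a log2 fold change of 2.78 from E40 to E50 (SE 0.52, adjusted p = 0.0124). RUNX2, the early osteoblast and odontoblast regulator, was at 32.6 ± 5.10, 5.34 ± 0.311 and 11.8 ± 8.37 FPKM, with −2.58 (SE 0.57, adjusted p = 0.0133). At E60, RUNX2 was at 3.55 FPKM in the deep library 1 and at 20.3 and 11.7 in the shallow libraries 2 and 3. ATF4, TWIST1 and MSX1, the most abundant of the list, were not called, DLX5 was listed at 0, and the list median was 1.02, −0.55 and 0.14 in the 3 comparisons, against 0.55, −0.64 and −0.22 over all genes.

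Of 6 tested genes of mineral and phosphate handling, FGFR1 and ENPP1 were called higher and SLC20A2 lower from E40 to E50. SLC20A2, a phosphate importer, was at 127 ± 12.6, 21.7 ± 1.24 and 42.3 ± 16.5 FPKM (SD, n = 3), with a log2 fold change of −2.55 (SE 0.36, adjusted p = 0.00916). ENPP1, which makes the mineralization inhibitor pyrophosphate, was at 2.64 ± 0.894, 12.0 ± 1.85 and 8.17 ± 8.54 FPKM, with 2.20 (SE 0.67, adjusted p = 0.0326), and FGFR1 changed by 1.49 (SE 0.53, adjusted p = 0.0499). At E60, ENPP1 was at 18.0 FPKM in the deep library 1 and at 2.73 and 3.75 in the shallow libraries 2 and 3. Within the shallow set the change from E40 to E60 was 0.33 for ENPP1, −0.01 for FGFR1 and −1.93 for SLC20A2. ANKH, the pyrophosphate exporter, was at 12.8, 24.9 and 18.4 FPKM and was not called, and ALPL and SLC20A1 were listed at 0. The list median was 1.23, −0.73 and 0.49 in the 3 comparisons.

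Of 10 tested matrix genes, COL1A2 and DCN were called higher and CHAD lower from E40 to E50. COL1A2, of the type I collagen on which dentin and bone mineralize, was at 184 ± 53.1, 866 ± 90.4 and 1040.5 ± 1075 FPKM (SD, n = 3), with a log2 fold change of 2.27 (SE 0.67, adjusted p = 0.0295). The proteoglycan gene DCN changed by 2.94 (SE 0.64, adjusted p = 0.0132) and CHAD by −5.36 (SE 1.02, adjusted p = 0.0124). At E60, CHAD was at 0.292 FPKM in the deep library 1 and at 7.15 and 7.07 in the shallow libraries 2 and 3. In the same order DCN was at 547, 69.3 and 164, and COL1A2 at 2276, 319 and 527. Within the shallow set the change from E40 to E60 was 1.19 for COL1A2, 1.16 for DCN and −0.83 for CHAD. SPARC, osteonectin, was at 372, 441 and 738 FPKM and was not called, and the list median was 0.73, −0.36 and 0.80.

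Of 10 tested enzymes that process the members, FAM20A, the partner of the secretory kinase that phosphorylates them, was the single call, lower from E40 to E50 by 1.33 log2 units (SE 0.35, adjusted p = 0.0202), at 12.2 ± 2.15, 4.77 ± 0.409 and 12.0 ± 2.97 FPKM (SD, n = 3). VKORC1, CTSB and MMP2, the most abundant of the list, were not called, and the list median was 0.58, −0.02 and −0.11.

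Of 9 receptors of the members, ITGB1, ITGAV, ITGA4, ITGA8 and ITGA9 were called higher and GPRC6A, proposed as an osteocalcin receptor, lower from E40 to E50. ITGA4, an integrin subunit that binds SPP1, was at 4.89 ± 0.525, 52.9 ± 8.42 and 66.4 ± 67.0 FPKM (SD, n = 3), with log2 fold changes of 3.40 from E40 to E50 (SE 0.63, adjusted p = 0.0124) and 3.24 from E40 to E60 (adjusted p = 0.0381, and 2.43 with 0.00559 without E60 library 1). ITGB1 and ITGAV, subunits of RGD-binding integrins, changed by 1.82 (SE 0.51, adjusted p = 0.0249) and 2.08 (SE 0.57, adjusted p = 0.0225), ITGA8 by 2.61 and ITGA9 by 1.84, and GPRC6A by −4.80 (SE 1.27, adjusted p = 0.0208). At E60, GPRC6A was at 0.063 FPKM in the deep library 1 and at 8.15 and 4.65 in the shallow libraries 2 and 3. ITGB1 was at 305 FPKM in E60 library 1 and at 68.9 and 111 in E60 libraries 2 and 3, and ITGAV at 123, 22.3 and 34.9. Within the shallow set the change from E40 to E60 was 0.29 for GPRC6A, 0.17 for ITGB1 and 0.26 for ITGAV. It was −0.59 for ITGA9, 1.11 for ITGA8 and 2.43 for ITGA4. ITGB5 was not called, and the list median was 1.82, −0.96 and 0.77.

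Of 8 tested signals that act on these genes, DKK1 and BMP2 were called higher from E40 to E50. DKK1, a secreted inhibitor of Wnt signalling, was at 10.05 ± 4.45, 210.3 ± 20.0 and 101.0 ± 58.5 FPKM (SD, n = 3), with log2 fold changes of 4.48 from E40 to E50 (SE 0.50, adjusted p = 0.00397) and 3.26 from E40 to E60 (adjusted p = 0.0149, and 2.82 with 0.00949 without E60 library 1). BMP2, which induces odontoblast genes in papilla cells, was listed at 0 in all E40 libraries and at 1.003 ± 0.207 and 1.38 ± 1.46 FPKM at E50 and E60. In the shallow E60 libraries 2 and 3 it was at 0.416 and 0.652 FPKM. The E40 libraries are shallow too, so a 0 there may be a level below detection. BMP2 did not pass the filter in the fit without E60 library 1. BMP4 and BMP7 were not called, and the list median was 0.96, −0.28 and 1.001. The E40 to E50 calls of these lists compare shallow with deep libraries throughout.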

How the data were processed

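RNA sequencing values of 9 pig tooth germ libraries, 3 a stage, were used, grouped by their titles. The authors built directional libraries from rRNA-depleted RNA, aligned paired reads with TopHat (Sscrofa10.2 per the submitters' processing notes) and deposited FPKM values for 34580 genes and transcripts, and the annotation and counting tool are not given in the sources used here. No scaling between libraries is stated. Whole reads were recovered from the steps in the FPKM of each gene, in 28962 of 28963 rows above 0, which gave the depth of each library.

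Log2(FPKM + 0.1) of genes with at least 1 FPKM in at least 2 libraries was tested two-sided with limma 3.58.1 (R 4.3.3, mean-variance trend) over all 9 libraries, one coefficient a stage, with Benjamini-Hochberg adjustment over all genes tested. Scripts were tested on simulated data. Named genes were the 7 members and, of each of 6 lists, the 3 most abundant genes and up to 6 called ones by size of change. Genes most alike were the nearest 3, leaving out LOC symbols. A called gene of the lists and a gene among the most alike are not reported here. Members and lists were chosen with earlier results of these data known. Alternatives were pseudocounts 1 and 0.01, filters, median-ratio scaling, limma-voom on recovered reads, the depth set as a term or as a split, only the compared stages, a replicate block, and each library left out; the DSPP to SPP1 ratio without E40 library 3 was added after the data were seen. Gene order came from a RefSeq table of Sscrofa11.1, which differs from the build of the files, so no coordinates are given.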

Additional observations from a re-analysis of the deposited data

How the results depend on the processing

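Results are counts of members called and log2 fold changes. Of 412 alternative values, 337 kept direction and side of the threshold or, for a count, stayed within 1.5 times of it, which counts 3 in place of 2 as kept and does not ask which genes were called. From E50 to E60 the number of members called was 3 with pseudocount 1, median-ratio scaling, limma-voom or without E60 library 1, 1 with a pseudocount of 0.01 or no filter, 4 with median-ratio scaling without E60 library 1, and 0 with the replicate block. Limma-voom called 0.754% of all tested genes in this comparison, and the fit without E60 library 1 called 59.1%. For the other settings the share is not given, so their counts do not show how common a call was. Correlations of the deviations of same-numbered libraries were −0.52, −0.12 and −0.11 between E50 and E60. They were 0.083, −0.004 and 0.109 between E40 and E50, and −0.20, 0.009 and −0.14 between E40 and E60. With 3 libraries a stage and E60 library 1 apart in depth, they cannot decide whether same-numbered libraries share a source. Under the block the DMP1 change of 4.79 had an adjusted p of 0.215 and the PHEX change of 5.94 one of 0.0759 (limma). From E40 to E60 the number of members called was 1 with only the compared stages, where 0.142% of all genes were called (DSPP 8.32 and DMP1 4.81 then missed the threshold). From E40 to E50 it was 1, BGLAP, with median-ratio scaling (−1.95), the same without E60 library 1 (−1.93), and limma-voom (−1.81). Median-ratio scaling called 37.1% of all genes there and limma-voom 32.4%.

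DSPP from E50 to E60 passed the threshold with pseudocount 1 (6.77), median-ratio scaling (8.27; 8.20 without E60 library 1), limma-voom (8.04) and only the compared stages (7.54), and DMP1 missed it with pseudocount 0.01 (4.90), no filter (4.79) and only the compared stages (4.79). IBSP from E50 to E60 was called at 1.32 with median-ratio scaling without E60 library 1, and from E40 to E50 it was at −0.94 (adjusted p = 0.00657, limma) there, short of 1 log2 unit. The share of all genes called in that fit is not given, so the IBSP call cannot be set against it.

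Values that changed sign were, from E40 to E50, DSPP with the set as a term (−0.32), DMP1 with pseudocount 1 (−0.024), median-ratio scaling (−0.57; −0.55 without E60 library 1), the set as a term (−1.17) and limma-voom (−0.51), PHEX in the last 4 of these (−0.55, −0.53, −1.76 and −0.63) and SPP1 in the first 3 of those (−0.23, −0.21 and −0.61). From E50 to E60 they were SPP1 with median-ratio scaling (0.47; 0.43 without E60 library 1), the set as a term or as a split (0.39) and limma-voom (0.11), and BGLAP with median-ratio scaling (0.19 and 0.46). From E40 to E60 they were SPP1 (−0.22) and IBSP (−0.059) within the set. The causes were not tested.

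With each library left out, the members called ranged from 0 to 3 from E50 to E60, and the changes ranged from −0.67 to 1.71 for DSPP, −0.24 to 0.51 for DMP1 and −0.10 to 0.11 for PHEX from E40 to E50, from 7.18 to 7.76 for DSPP, 4.39 to 5.29 for DMP1, 5.34 to 6.43 for PHEX and −0.65 to 0.056 for SPP1 from E50 to E60, and from −0.22 to 0.49 for SPP1 and −0.059 to 0.74 for IBSP from E40 to E60. The split by set has no E40 to E50 value, since no set holds both stages. In the 5 shallow libraries BGLAP had 1 to 9 reads and MEPE 0 to 3, which limits what can be seen of them.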
